A study of Mus musculus with 8 samples.

Results

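The 10 members of the list described here centre on the feedback arm of growth factor signalling. Of these, Dusp9, Dusp1, Dusp6 and Dusp4 are MAP kinase phosphatases, and Etv4 and Etv5 are ETS transcription factors. Spry1, Spry2 and Spry4 are Sprouty inhibitors. The last member, Mapk13, is a kinase of the stress arm and no feedback inhibitor. All 10 were chosen by name out of 12393 genes. Every probe set annotated to 1 of them alone was taken, which gave 14 of 22690 probe sets. Of the 10 members, 9 had such a probe set and 8 passed a filter on dim genes. Dusp4 was not analysed here, and Spry4 lay under the filter, so it is left out of the main fit. The list was put together with values of these same 8 arrays in view, across all 4 groups. The fold changes and p-values below therefore describe where each member lies in a fit of all genes, and are no independent support for a pattern among them.

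The arrays hold total RNA of stromal-vascular cells of inguinal white fat from male C57BL/6J mice, differentiated into adipocytes in culture. The cells expressed sh-scr, a scrambled control hairpin, or sh-PRDM16, a hairpin against the transcriptional co-regulator PRDM16, and were left without an added agent or given rosiglitazone, a PPARgamma agonist, at 1 µM. This makes 4 groups, a treated and an untreated one for either hairpin, each with 2 Affymetrix 430A_2 arrays. All groups share the strain, the depot and the expression of a hairpin, and the labels name a single hairpin per target. The 2 arrays of a group are called biological replicates, with no word on separate animals or cultures, so p-values measure the spread between these arrays, which may in part be technical.

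ERK is the last kinase of the cascade by which growth factor receptors, through Ras and Raf, switch on genes for growth and migration. The cascade also induces its own brakes: DUSP phosphatases remove the activating phosphates from MAP kinases, and Sprouty proteins block the relay between the receptors and Ras. The PEA3-type ETS factors Etv4 and Etv5 are themselves ERK targets, so the RNA of this group is often read as a trace of pathway activity. In fat cells, ERK signalling takes part in early differentiation, and its phosphorylation of PPARgamma lowers the activity of that receptor.

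Before the members, the arrays as a whole are set out. The median intensity of an array lay between 100.7 and 135.65, and between 22 and 25.2% of probe sets on an array read below 16. Replicates correlated at 0.991 over log2 values, above the highest correlation with any array of another group, 0.984. The adipocyte label was borne by Adipoq, which encodes adiponectin, at 9965.3 to 15190.7 over the 8 arrays, and by Fabp4, a fatty acid carrier, at 16409.9 to 22736.2. The summed intensity of 10 adipocyte markers, these among them, was lower on every sh-PRDM16 array. It was 69170.9 to 70025.1 in untreated and 68606.6 to 72292.6 in treated sh-scr cells. In sh-PRDM16 cells it was 44205.3 to 50458.2 untreated and 59249.1 to 63863.3 treated. The summed intensity of 10 macrophage and leukocyte markers also separated the hairpins. That sum was 5283.5 to 5812.2 in untreated and 3472.2 to 3488.2 in treated sh-scr cells. With sh-PRDM16 it was 1072.7 to 1186.2 in untreated and 871.9 to 924.5 in treated cells. The log2 ratio of 3′ over 5′ actin control signal was 0.38 and 0.49 in treated sh-scr and 0.25 to 0.34 on the other arrays. For the Gapdh control this ratio was -0.35 to -0.33 on the treated arrays of both hairpins and -0.45 to -0.40 on the untreated ones. In bulk RNA, fewer cells of a type and less RNA per cell cannot be told apart. The RNA of Prdm16 itself was not analysed here, and the knockdown is taken from the labels.

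The values were compared on the scale log2(intensity + 16), with limma's moderated test over 9294 genes, a Benjamini-Hochberg adjusted p under 0.05 as the threshold, and a single fit of all 8 arrays. As deposited, the arrays differ in overall level. The median change of all genes was -0.31 with rosiglitazone in sh-scr cells, 0.00 with rosiglitazone in sh-PRDM16 cells, -0.16 for sh-PRDM16 against sh-scr without the drug and 0.15 with it. For the members, each call below is therefore also given where it differs on median-centred or quantile-normalized arrays. For genes outside the list of members this is given for some of the calls only.

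Dusp9 encodes a cytoplasmic phosphatase that acts mainly on ERK, and its gene lies on chromosome X from 73639389 to 73643514 (GRCm38.p6). Its 3 probe sets gave one picture: a high signal in sh-PRDM16 cells under rosiglitazone and a low one in the other groups. On probe set 1433845_x_at, which has the highest mean and stands for the gene, the arrays read 38.3 and 43.5 in untreated sh-scr, 55.9 and 52.2 in treated sh-scr, 61.9 and 36.9 in untreated sh-PRDM16, and 258.7 and 310.3 in treated sh-PRDM16 cells. Both arrays of treated sh-PRDM16 cells lay above all 6 others, while the untreated sh-PRDM16 arrays spanned the range of the sh-scr groups. The group means were 40.9 ± 3.68, 54.0 ± 2.62, 49.4 ± 17.7 and 284.5 ± 36.5 (SD, n = 2) in that order.

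Probe set 1454737_at of Dusp9 read 32.9 and 35.1, 35.8 and 54.4, 44.1 and 28.7, and 228.0 and 248.1 in the same order of groups. Probe set 1433844_a_at read 47.5 and 51.3, 32.4 and 50, 22.1 and 36.3, and 171.7 and 165.8. All 3 thus put the treated sh-PRDM16 arrays on top. The 3 share a source transcript and so are not independent, and a suffix _x_at marks a probe set that can bind other transcripts.

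**Figure D1:**
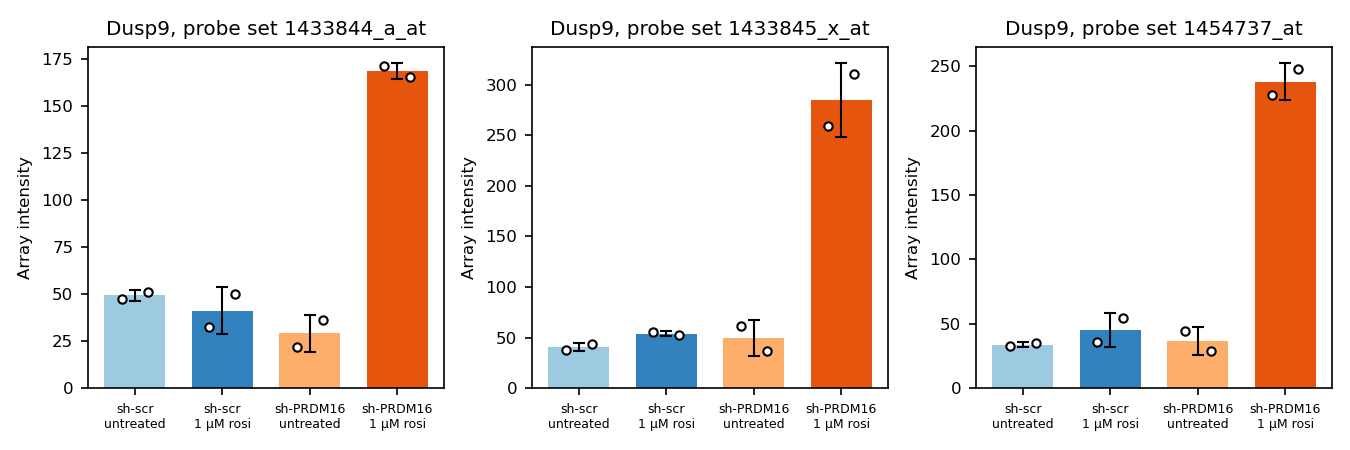
Array intensity of the 3 Dusp9 probe sets in the 4 groups. Bars are means of 2 arrays, error bars are SD and circles are single arrays. The treated sh-PRDM16 arrays read 165.8 to 310.3, and no other array passes 61.9.

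With rosiglitazone, Dusp9 rose in sh-PRDM16 cells by 2.22 on the log2(intensity + 16) scale (SE 0.19, 95% interval 1.80 to 2.64, limma adjusted p = 8.3e-05). In sh-scr cells its difference was 0.30 (SE 0.19, limma adjusted p = 0.219), with an interval of -0.12 to 0.72. On median-centred arrays the sh-scr difference was 0.59 and passed the threshold, as it did on quantile-normalized arrays at 0.52. Each probe set fitted alone also rose in sh-PRDM16 cells, by 2.05 for 1433844_a_at and 2.29 for 1454737_at. In sh-scr cells these 2 went opposite ways, at -0.21 and 0.27, and neither passed. Among treated cells Dusp9 was higher with sh-PRDM16 by 2.10 (SE 0.19, limma adjusted p = 0.00024), and among untreated cells the difference was 0.18 (limma adjusted p = 0.580). On the other 2 probe sets the untreated difference was -0.55 and 0.05, and neither passed. The rise in sh-PRDM16 cells and the excess among treated cells were called in each of the 19 fits run, at 1.62 to 2.54 and 1.56 to 2.37.

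Dusp1 encodes a nuclear phosphatase of the MAP kinases that is itself an early response gene, at chromosome 17, 26505591 to 26508472. Its arrays read 870.7 and 819.8 in untreated sh-scr, 726.1 and 656.2 in treated sh-scr, 1031.7 and 971.3 in untreated sh-PRDM16, and 947.1 and 985.2 in treated sh-PRDM16 cells. All sh-PRDM16 arrays lay above all sh-scr arrays, and within the sh-scr cells the treated arrays lay below the untreated ones. Among treated cells Dusp1 was higher with sh-PRDM16 by 0.48 (SE 0.13, limma adjusted p = 0.0357), a call made in 10 of 20 fits and lost without either array of untreated sh-scr, treated sh-scr or treated sh-PRDM16 cells (0.40 to 0.55). The difference among untreated cells was 0.24 (limma adjusted p = 0.234), and it passed on median-centred arrays (0.43) and quantile-normalized arrays (0.45). With rosiglitazone Dusp1 differed by -0.29 in sh-scr cells (limma adjusted p = 0.0995) and by -0.05 in sh-PRDM16 cells (limma adjusted p = 0.847).

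The RefSeq promoter table (GRCm38.p6) gives the 250 bases before the annotated start of some members. The windows of 2 that passed a threshold, Dusp1 and Spry1, are shown. They were picked because Spry1 is the Sprouty member called with rosiglitazone and Dusp1 the phosphatase called beside Dusp9. Mapk13 also passed and has a window, which is not printed. The Dusp1 window is chr17:26508473-26508722 on the minus strand and the Spry1 window chr3:37639697-37639946 on the plus strand. Both are written 5′ to 3′, with matches on either strand to the ETS-type sequence CCGGAA or the cyclic AMP response half-site TGACG in capitals.
Dusp1: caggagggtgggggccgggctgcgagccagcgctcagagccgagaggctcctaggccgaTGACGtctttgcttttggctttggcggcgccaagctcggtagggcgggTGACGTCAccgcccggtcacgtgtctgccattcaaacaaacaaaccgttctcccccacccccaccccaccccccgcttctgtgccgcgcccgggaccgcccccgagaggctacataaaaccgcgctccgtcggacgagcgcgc
Spry1: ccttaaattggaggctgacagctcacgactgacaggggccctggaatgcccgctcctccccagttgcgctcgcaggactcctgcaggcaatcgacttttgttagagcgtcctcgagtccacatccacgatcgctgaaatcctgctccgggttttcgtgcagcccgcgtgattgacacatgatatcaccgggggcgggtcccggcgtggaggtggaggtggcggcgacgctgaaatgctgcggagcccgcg

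The table held 6 of the 10 members (Dusp1, Dusp6, Etv5, Spry1, Spry2 and Mapk13), and 4 motifs were searched in each window on both strands. Dusp1 held 3 matches to TGACG, at 191, 143 and 140 bases before the start. The last 2 overlap, as the motif read on the 2 strands of TGACGTCA. No window of these members held CCGGAA, the AP-1 site TGANTCA or the nuclear receptor half-site AGGTCA, and no window but that of Dusp1 held TGACG. Among 32851 promoter windows of this length, 17.8% held TGACG, 12.0% CCGGAA, 14.0% AGGTCA and 6.75% TGANTCA. The shorter GGAA, the core of ETS sites, was not searched. A match is a description of the letters, not a site of binding.

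Dusp6, a cytoplasmic phosphatase specific for ERK and a classic readout of FGF signalling (chromosome 10, 99263231 to 99267489), had its lowest mean in each hairpin under rosiglitazone. Its arrays read 756.6 and 814.2 in untreated sh-scr, 606.4 and 556.4 in treated sh-scr, 715.5 and 560.7 in untreated sh-PRDM16, and 416.2 and 552.5 in treated sh-PRDM16 cells. In each hairpin both treated arrays lay below both untreated ones, by a wide margin in sh-scr cells and a narrow one in sh-PRDM16 cells. The differences were -0.42 in sh-scr cells (SE 0.17, limma adjusted p = 0.0795) and -0.39 in sh-PRDM16 cells (SE 0.17, limma adjusted p = 0.182), and neither passed. Each was called in 4 of 20 fits. On median-centred and quantile-normalized arrays Dusp6 fell in sh-PRDM16 cells by 0.41 and by 0.46, and the sh-scr differences were -0.13 and -0.12. Between the hairpins it differed by -0.30 without the drug and by -0.27 with it (limma adjusted p = 0.274 and 0.303). The latter difference passed after median centring at -0.39, and also on quantile-normalized arrays.

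Etv4, an ETS factor of the PEA3 type, is encoded at chromosome 11, 101769747 to 101785310. Its arrays read 35.5 and 41.4 in untreated sh-scr, 6.5 and 7.2 in treated sh-scr, 22.4 and 23.6 in untreated sh-PRDM16, and 57.1 and 29.5 in treated sh-PRDM16 cells. The 2 treated sh-scr arrays lay below the 6 others. The treated sh-PRDM16 arrays lay far apart, one above and one below the untreated sh-scr pair, and both above the untreated sh-PRDM16 pair.

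With rosiglitazone Etv4 fell in sh-scr cells by 1.25 (SE 0.20, limma adjusted p = 0.00336). In sh-PRDM16 cells its difference was 0.56 (SE 0.20, 95% interval 0.11 to 1.02, limma adjusted p = 0.10). Without the second treated sh-PRDM16 array that difference was 0.91 and passed. Among treated cells Etv4 was higher with sh-PRDM16 by 1.34 (SE 0.20, limma adjusted p = 0.00368). Among untreated cells it differed by -0.48 (limma adjusted p = 0.138), and it passed without either treated sh-PRDM16 array. The fall in sh-scr cells and the excess among treated cells were called in each of 19 fits, at -2.33 to -0.53 and 0.59 to 2.42. The treated sh-scr signal lies in the range below 16, where the added 16 shrinks a fold change.

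Etv5, the other PEA3-type factor (chromosome 16, 22381313 to 22439570), had 2 probe sets, neither of which passed in any comparison. On 1450082_s_at the arrays read 63.5 and 86.1 in untreated sh-scr, 57.0 and 77.5 in treated sh-scr, 98.5 and 72.0 in untreated sh-PRDM16, and 50.5 and 68.6 in treated sh-PRDM16 cells. Replicates differed as much as groups did. Probe set 1420998_at read 42.8 and 37.9, 28.5 and 23.0, 53.1 and 36.8, and 35.7 and 45.4 in that order, with the 2 treated sh-scr arrays lowest. The probe sets disagreed on treated cells, where sh-PRDM16 minus sh-scr was -0.14 on the first and 0.44 on the second (limma adjusted p = 0.659 and 0.131). Rosiglitazone minus untreated was -0.13 in sh-scr cells (95% interval -0.59 to 0.34) and -0.42 in sh-PRDM16 cells (-0.88 to 0.04) on 1450082_s_at.

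Spry1, whose protein holds back signalling from FGF and other receptors, is encoded at chromosome 3, 37639947 to 37644599, next to the window printed above. Its arrays read 254.8 and 284.8 in untreated sh-scr, 170.3 and 158.3 in treated sh-scr, 204.8 and 181.7 in untreated sh-PRDM16, and 208.1 and 208.7 in treated sh-PRDM16 cells. Untreated sh-scr was highest, treated sh-scr lowest, and the sh-PRDM16 arrays lay between them. With rosiglitazone Spry1 fell in sh-scr cells by 0.66 (SE 0.13, limma adjusted p = 0.00722), a call lost without the second untreated (-0.59) or the second treated (-0.62) sh-scr array, and differed by 0.10 in sh-PRDM16 cells (95% interval -0.19 to 0.40, limma adjusted p = 0.676). Without the drug it was lower with sh-PRDM16 by -0.45 (SE 0.13, limma adjusted p = 0.0429), a call made in 8 of 20 fits. It was lost on median-centred arrays at -0.26, and without any 1 array but the first untreated sh-PRDM16 one (-0.53 to -0.37). With the drug the difference was 0.32 (limma adjusted p = 0.124).

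Spry2, another Sprouty inhibitor of receptor signalling (chromosome 14, 105891947 to 105896819), did not pass in any comparison on the deposited scale. Probe set 1436584_at read 683.2 and 715.9 in untreated sh-scr, 667.1 and 684.7 in treated sh-scr, 963.1 and 756.7 in untreated sh-PRDM16, and 780.0 and 793.9 in treated sh-PRDM16 cells. All 4 sh-PRDM16 arrays lay above all 4 sh-scr arrays, with 1 untreated sh-PRDM16 array far above the rest. The hairpin difference was 0.28 without the drug (SE 0.14, limma adjusted p = 0.219) and 0.21 with it (limma adjusted p = 0.318). The untreated difference passed on median-centred arrays (0.47) and on quantile-normalized arrays (0.50). The second probe set, 1421656_at, read 33.0 to 47.0 over the 8 arrays and gave -0.03 for the untreated hairpin difference.

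Spry4, the remaining Sprouty gene, lay under the filter. Probe set 1422021_at read 7.6 and 24.8 in untreated sh-scr, 10.2 and 15.5 in treated sh-scr, 25.9 and 17.6 in untreated sh-PRDM16, and 42.2 and 28.3 in treated sh-PRDM16 cells. Its highest arrays were those of treated sh-PRDM16 cells, above all 6 others. With every probe set fitted on its own, 1422021_at passed in no comparison. Among treated cells its hairpin difference there was 0.82 (SE 0.26, limma adjusted p = 0.0792). Probe set 1422020_at read 3.8 to 8.5 on 7 arrays and 16.4 on 1 array of treated sh-PRDM16 cells.

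Mapk13 encodes p38 delta, a MAP kinase of the stress arm and no feedback inhibitor, at chromosome 17, 28769286 to 28778704. Its arrays read 13.0 and 17.7 in untreated sh-scr, 34.8 and 32.4 in treated sh-scr, 54.4 and 55.6 in untreated sh-PRDM16, and 37.8 and 30.1 in treated sh-PRDM16 cells. Untreated sh-scr was lowest and untreated sh-PRDM16 highest, and the treated groups overlapped in between. With rosiglitazone Mapk13 rose in sh-scr cells by 0.67 (SE 0.14, limma adjusted p = 0.00887) and fell in sh-PRDM16 cells by 0.51 (SE 0.14, limma adjusted p = 0.0408). Without the drug it was higher with sh-PRDM16 by 1.18 (SE 0.14, limma adjusted p = 0.00068), and with the drug the difference was 0.01 (95% interval -0.31 to 0.32). The untreated difference was called in each of 19 fits and the rise in sh-scr cells in 16 of 19, not without the first untreated sh-scr array (0.56). The fall in sh-PRDM16 cells was called in 4 of 19 fits and was lost without any 1 of the 8 arrays.

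**Figure D2:**
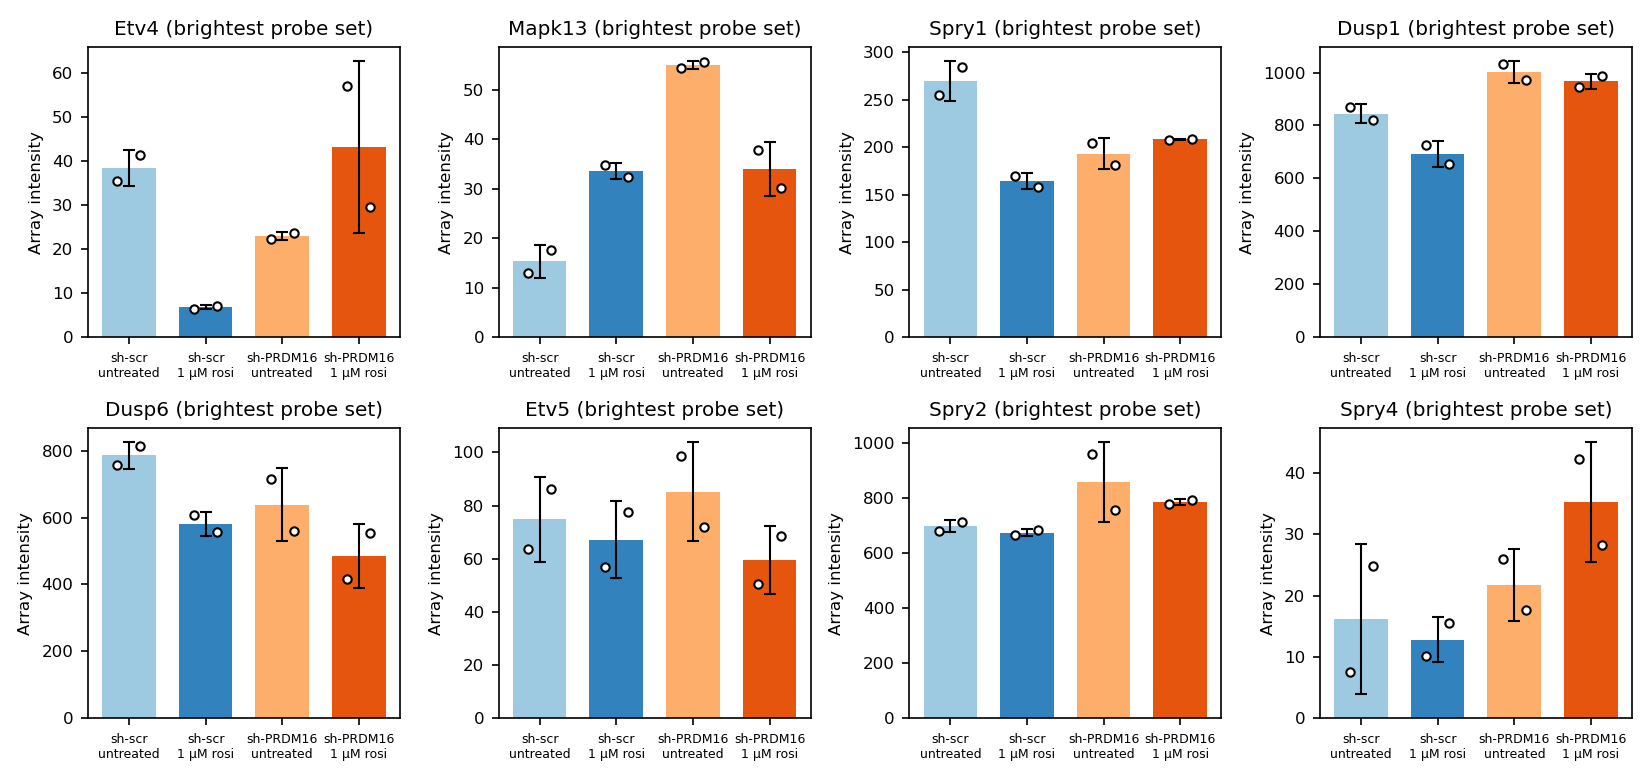
Array intensity of the brightest probe set of the other 8 members with a probe set. Bars are means of 2 arrays, error bars are SD and circles are single arrays, each panel with its own axis from 0. Etv4 is at 6.5 and 7.2 in treated sh-scr cells, and Mapk13 is at 13.0 and 17.7 in untreated sh-scr cells.

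Counted over the members, rosiglitazone in sh-scr cells gave 3 calls of 8, Mapk13 up and Etv4 and Spry1 down, where 37.4% of all genes tested were called (5.2% up and 32.2% down). In sh-PRDM16 cells it gave 2 calls of 8, Dusp9 up and Mapk13 down, against 13.4% of all genes (10.1% up and 3.31% down). The median difference of the 8 members was -0.21 and -0.08, beside -0.31 and 0.00 for all genes. The split of all calls depends on the scale: in sh-scr cells 483 genes rose and 2991 fell as deposited, and 1322 rose and 1103 fell on median-centred arrays. In sh-PRDM16 cells the counts were 937 up and 308 down as deposited, and 1347 up and 917 down after centring. Quantile-normalized arrays gave 1216 up and 1383 down in sh-scr cells, and 1230 up and 1256 down in sh-PRDM16 cells. Of 9 preadipocyte and fibroblast markers, 7 fell with the drug in sh-scr and 2 in sh-PRDM16 cells as deposited, against 5 and 6 on median-centred and 5 and 7 on quantile-normalized arrays. Their summed intensity in treated cells was 29738.4 to 31259.9 with sh-scr and 34759.1 to 36161.7 with sh-PRDM16. Of 8 smooth muscle and pericyte markers 6 and 4 fell as deposited, and 4 and 4 on both other scales. Their part in the members' differences was not tested.

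**Figure D3:**
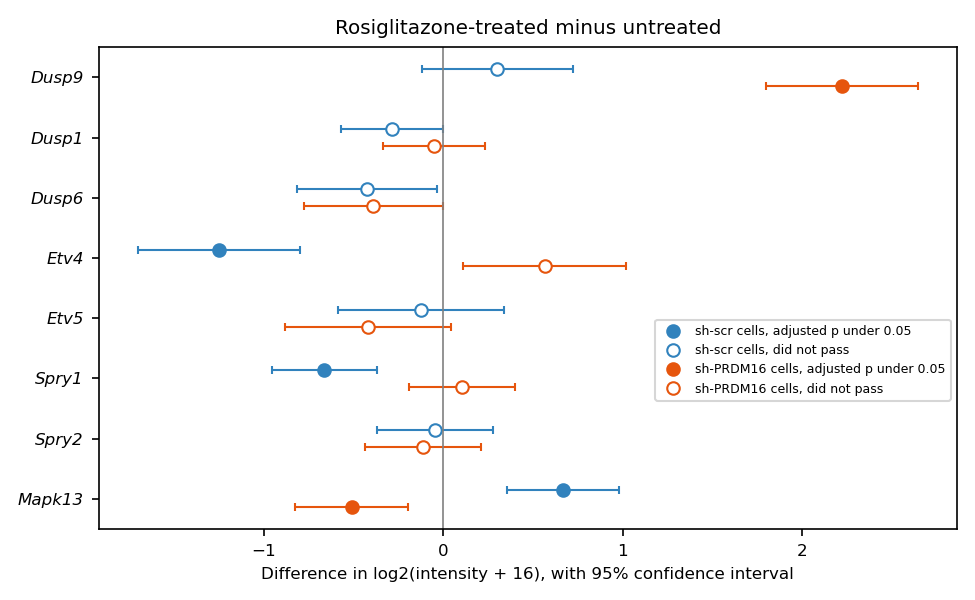
Difference between treated and untreated cells for the 8 members tested, on the log2(intensity + 16) scale, in sh-scr (blue) and sh-PRDM16 cells (orange). Points are fitted differences, bars are 95% intervals, and filled points have an adjusted p under 0.05. Dusp9 in sh-PRDM16 cells stands at 2.22 and Etv4 in sh-scr cells at -1.25.

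Between the hairpins, 2 of 8 members were called without the drug, Mapk13 up and Spry1 down, where 17.5% of all genes were called (1.99% up and 15.5% down). With the drug 3 of 8 were called, Dusp9, Etv4 and Dusp1, all up, against 15.2% of all genes (10.6% up and 4.62% down). Members had a median difference of 0.17 and 0.27, beside -0.16 and 0.15 for all genes. After median centring, 818 genes were up and 1170 down without the drug, in place of 185 and 1439, and 1146 up and 1141 down with it, in place of 981 and 429. Markers of macrophages and leukocytes moved with these comparisons: 7 of 9 tested fell with sh-PRDM16 without the drug and 8 of 9 with it, with Lyz2, which encodes a lysozyme, at -3.69 and -3.62. Of 10 adipocyte markers, 8 were lower with sh-PRDM16 without the drug and 4 with it, the latter count being 8 on median-centred arrays. The part of these markers was not tested either. The drug comparisons share arrays with the hairpin comparisons, so the counts are not independent of each other.

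**Figure D4:**
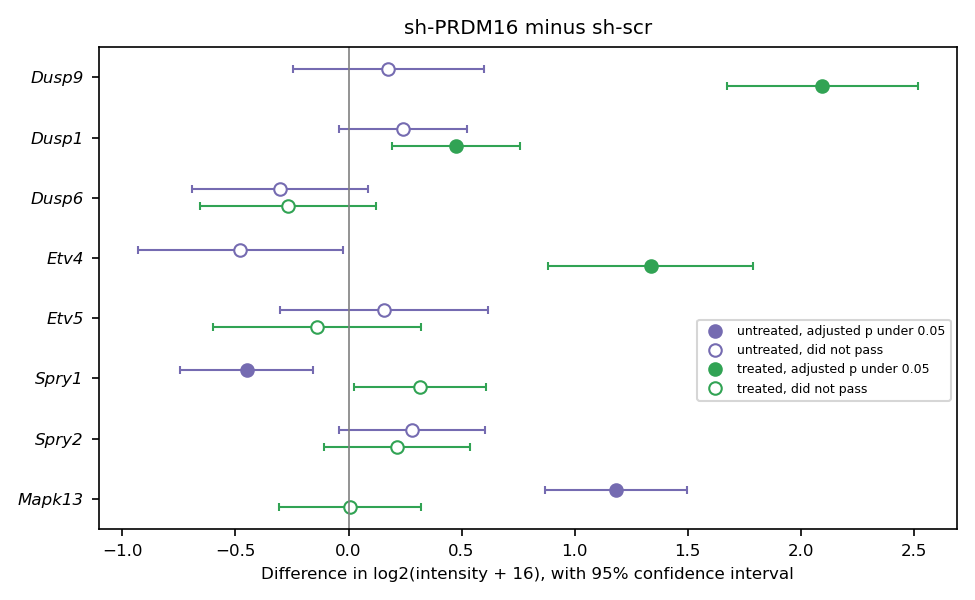
Difference between sh-PRDM16 and sh-scr cells for the 8 members tested, on the log2(intensity + 16) scale, among untreated (purple) and treated cells (green). Points are fitted differences, bars are 95% intervals, and filled points have an adjusted p under 0.05. Dusp9 is at 0.18 untreated and 2.10 treated, and Mapk13 at 1.18 untreated and 0.01 treated.

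The difference between the rosiglitazone changes of the 2 hairpins, the interaction, passed for 3 of 8 members, where 0.667% of all genes were called (0.603% up and 0.0646% down). It was 1.92 for Dusp9 (SE 0.27, limma adjusted p = 0.0224), 1.82 for Etv4 (SE 0.28, limma adjusted p = 0.0331) and -1.18 for Mapk13 (SE 0.20, limma adjusted p = 0.0413). Spry1 stood at 0.77 (SE 0.18, limma adjusted p = 0.0934), and Dusp1, Dusp6, Etv5 and Spry2 between -0.30 and 0.23. The median of the 8 members was 0.13 beside 0.33 for all genes. Fitted alone, the Dusp9 probe sets gave 2.26, 1.92 and 2.02 (limma adjusted p = 0.0265, 0.0438 and 0.0418). On median-centred arrays no member passed in limma's fit. There 5 of the 8 members and 1244 of all 9294 genes tested had an unadjusted p under 0.05. Dusp9 was at 1.61, Etv4 at 1.50 and Mapk13 at -1.49 on that scale. Quantile-normalized arrays gave 1.66, 1.66 and -1.30, again with no call. In limma's fit 5 members had an unadjusted p under 0.05 there, and so did 1282 of all 9294 genes. Leaving out the second untreated sh-PRDM16 array ended the 3 calls too, with Dusp9 at 1.64. Dusp9 was also lost without the second treated sh-PRDM16 array (1.80), Etv4 without the first untreated sh-PRDM16 (1.79), the second untreated sh-scr (1.74) or the second treated sh-scr array (1.84), and Mapk13 without any 1 array.

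Other genes of the pathway were read from 7 lists chosen by function. Their counts are to be read beside the shares of all genes tested. With rosiglitazone these were 5.2% up and 32.2% down in sh-scr and 10.1% up and 3.31% down in sh-PRDM16 cells. For sh-PRDM16 against sh-scr they were 1.99% up and 15.5% down without the drug, and 10.6% up and 4.62% down with it. On median-centred arrays the drug gave 1322 rises and 1103 falls of 9294 in sh-scr, and 1347 and 917 in sh-PRDM16 cells. Quantile-normalized arrays gave 1216 and 1383, and 1230 and 1256. Between the hairpins, median centring gave 818 up and 1170 down untreated, and 1146 and 1141 treated. Quantile normalization gave 978 and 1175, and 1163 and 1164. Among other MAP kinase phosphatases, Dusp10, which acts on p38 and JNK, rose with rosiglitazone in sh-scr cells by 0.97 (SE 0.15, limma adjusted p = 0.0027) and in sh-PRDM16 cells by 0.96 (SE 0.15, limma adjusted p = 0.0029). Its arrays read 468.4 and 526.9 in untreated sh-scr, 1075.2 and 914.7 in treated sh-scr, 393.5 and 330.1 in untreated sh-PRDM16, and 682.4 and 754.2 in treated sh-PRDM16 cells. The treated arrays lay above the untreated ones in both hairpins. It was the only one of 9 tested phosphatases called in sh-scr cells as deposited, where 5 rose on median-centred and 4 on quantile-normalized arrays. In sh-PRDM16 cells Dusp22 (0.88) and Dusp19 (0.54) rose with it, the latter named after its value was seen.

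Between the hairpins, Dusp16, a phosphatase of JNK and p38, was lower with sh-PRDM16 in both states, by -0.83 without the drug (limma adjusted p = 0.0069) and -1.51 with it (limma adjusted p = 0.00053). Its arrays read 439.4 and 476.5 in untreated sh-scr, 588.6 and 515.9 in treated sh-scr, 285.6 and 219.5 in untreated sh-PRDM16, and 191.7 and 175.7 in treated sh-PRDM16 cells. All 4 sh-PRDM16 arrays lay below all 4 sh-scr arrays. Dusp3 fell alongside, by 0.70 without the drug and 0.81 with it, and Dusp14 rose by 0.73 and 0.62. Dusp3 in the first comparison and Dusp14 in the second were named after their values were seen. The untreated difference of Dusp16 also passed on median-centred (-0.64) and quantile-normalized arrays (-0.65).

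Of 11 other ERK feedback genes, 6 fell in sh-scr cells given rosiglitazone, among them the Ras GTPase activators Rasa2 (-0.74) and Rasa1 (-0.71). Their median was -0.51, and 3 fell on median-centred and 4 on quantile-normalized arrays. In sh-PRDM16 cells Errfi1, an inhibitor of the EGF receptor, fell by 0.56, and 4 of the 11 fell on either other scale. Between the hairpins limma's fit called none of the 11 as deposited, with 1 at an unadjusted p under 0.05 without the drug and 4 with it. Of all 9294 genes, 2912 without the drug and 3144 with it had such a p. On median-centred arrays 1 rose without the drug and 1 fell with it.

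Among 23 early genes that ERK induces, 14 fell and 1 rose with rosiglitazone in sh-scr cells, with a median of -0.52. On median-centred arrays 7 fell and 2 rose. Egr1, an early zinc finger factor, fell by 1.33 (SE 0.19, limma adjusted p = 0.0020), and its arrays read 1932.3 and 2054.0 untreated against 876.8 and 695.7 treated in sh-scr cells. Ier2, another early gene, fell by 0.99, and Fosl1 (0.88) was the rise, named after its value was seen. In sh-PRDM16 cells 5 fell and 3 rose, with Fosl1, a subunit of AP-1, up by 0.89 and Ereg, an EGF-type ligand, down by 0.81. The falls there numbered 8 on median-centred and 11 on quantile-normalized arrays, where 917 and 1256 of all 9294 genes fell.

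Between the hairpins the early genes gave 1 rise and 1 fall without the drug, Nr4a1 (1.07) and Atf3 (-1.12), and 6 rises and 1 fall with it. On median-centred arrays the untreated counts were 6 up and 1 down. Nr4a1, an orphan nuclear receptor, was up by 1.20 among treated cells, and its arrays read 408.8 and 398.7 in untreated sh-scr, 227.1 and 197.5 in treated sh-scr, 973.5 and 768.5 in untreated sh-PRDM16, and 501.9 and 511.7 in treated sh-PRDM16 cells. It was higher with sh-PRDM16 in each state. Epha2, an ephrin receptor, was up by 1.23 among treated cells, and missed the threshold on median-centred arrays at 1.11.

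Upstream, 8 of 18 ERK cascade members were lower with the drug in sh-scr cells, among them Rras (-0.85) and the adaptor Shc1 (-0.58). Shc1 did not pass on median-centred (-0.28) or quantile-normalized arrays (-0.29). After median centring 1 fell and 2 rose. Between the hairpins the cascade gave 3 falls without the drug, Rras (-0.63), Gab1 (-0.52) and Grb2 (-0.51), the last named after its value was seen. With the drug it gave 1 rise, Elk3 (0.69). Of all genes, 15.5% fell without the drug and 10.6% rose with it. Of 20 genes of the p38 and JNK cascades, 7 fell in sh-scr cells, a share near the 32.2% of all genes. Among them were Mef2c (-0.71) and Mapkapk2 (-0.68), and 2 fell and 1 rose after centring. Mef2c did not pass on median-centred (-0.42) or quantile-normalized arrays (-0.41). Map3k1 was lower with sh-PRDM16 without the drug (-0.92). Among treated cells Mapk14, the most widely expressed p38 kinase, and Map2k4, an activating kinase of JNK and p38, were higher with sh-PRDM16 (0.68 and 0.43), the latter not on median-centred arrays.

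The last lists hold receptors and ligands, to be read beside the 37.4% of all genes called in sh-scr and 13.4% in sh-PRDM16 cells. Of 14 receptor tyrosine kinases and co-receptors tested, 9 fell and 2 rose with rosiglitazone in sh-scr cells, and 6 fell and 2 rose after centring. Ntrk2 (-1.05) and Pdgfrb (-0.99), the latter a receptor of stromal cells, were among those that fell. Fgfr4 (0.50) and Klb (0.79) were the rises, named after their values were seen. Klb, the co-receptor of Fgf21, read 438.5 and 484.4 in untreated sh-scr, 812.1 and 807.2 in treated sh-scr, 222.0 and 195.7 in untreated sh-PRDM16, and 532.3 and 568.4 in treated sh-PRDM16 cells. It rose with the drug in sh-PRDM16 cells by 1.33 and was lower with sh-PRDM16 in both states, by -1.09 and -0.54. In sh-PRDM16 cells Klb was the 1 rise of this list and Erbb2 (-0.54) the 1 fall, where 7 fell after median centring. With sh-PRDM16 the falls beside Klb were Pdgfra, a receptor of stromal cells (-0.78, untreated), and Fgfr4 (-0.50, treated).

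Of 19 growth factor ligands, 2 rose and 6 fell in sh-scr cells, and 3 rose and 2 fell in sh-PRDM16 cells. After median centring the counts were 3 up and 2 down, and 3 up and 4 down. Fgf21, a hormone-like FGF, rose by 3.02 (SE 0.20, limma adjusted p = 3.9e-05) and by 3.34 (SE 0.20, limma adjusted p = 1.3e-05). Its arrays read 7.1 and 21.3, and 10.4 and 10.9, in the untreated sh-scr and sh-PRDM16 cells, and 216.2 and 228.3, and 268.9 and 241.0, in the treated ones. Nrg4, an ERBB ligand of fat, rose in both (1.21 and 0.75) and was lower with sh-PRDM16 in both states (-1.20 and -1.66). Fgf1 was lower with sh-PRDM16 among untreated cells (-1.19), not passing on median-centred arrays, and Pdgfc higher among treated cells (0.57). None of the 7 lists held a call for the interaction in limma's fit, where 0.667% of all genes were called. Of their 114 tested genes 19 had an unadjusted p under 0.05, as did 2365 of all 9294 genes. Of the 10 adipocyte markers, Cidec, a lipid droplet protein, passed for the interaction at 1.24 (limma adjusted p = 0.033), 6 had an unadjusted p under 0.05, and no marker of that list passed on median-centred arrays. The part of these markers in the members' interaction was not tested.

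**Figure D5:**
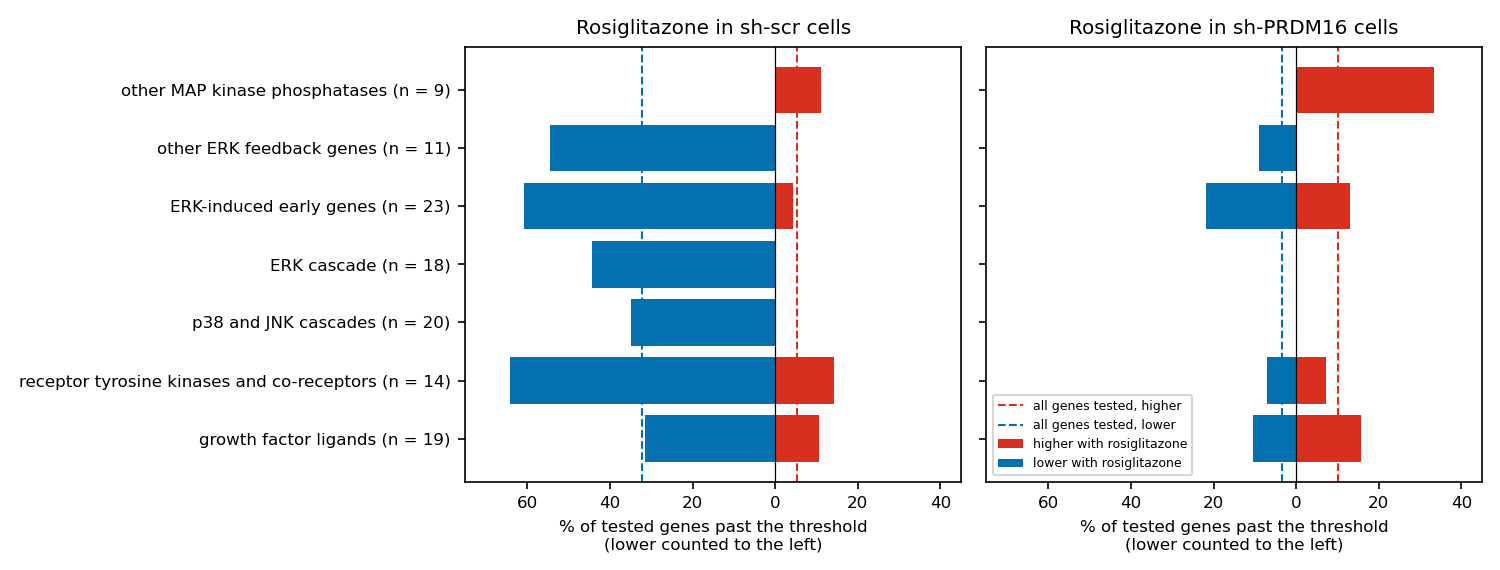
Share of tested genes of each pathway list that were past the threshold with rosiglitazone, higher to the right and lower to the left, in sh-scr (left) and sh-PRDM16 cells (right), on the deposited scale. Dashed lines give the same shares over all 9294 genes, 5.2% up and 32.2% down in sh-scr and 10.1% up and 3.31% down in sh-PRDM16 cells. In sh-scr cells 14 of 23 early genes are lower, a count that is 7 after median centring, where 1103 of all 9294 genes fell.

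The genes whose log2 values over the 8 arrays were most like those of Dusp9 were Tmem185a (Pearson r 0.994), Sptlc2 (0.989), Tuba4a (0.978), Septin9 (0.977) and Sys1 (0.977). Tmem185a read 1064.2 and 1165.1 in untreated sh-scr, 1185.0 and 1117.2 in treated sh-scr, 1219.7 and 1031.7 in untreated sh-PRDM16, and 1890.2 and 1957.5 in treated sh-PRDM16 cells. As with Dusp9, both arrays of the last group lay above the 6 others. For Etv4 the most alike were Map2k4 (0.954), Lpar4 (0.919), Pgm2 (0.916), Git1 (0.914) and Taf13 (0.913). For Spry2, taken as the Sprouty member of highest mean intensity, they were Slc2a1 (0.979), Ercc6l (0.958), Mier2 (0.957), Fam161a (0.956) and Cspp1 (0.954). Spry2 and each of its listed genes read highest on the first untreated sh-PRDM16 array. Slc2a1 read 3925.0 there and 2881.7 on the other array of that group. Map2k4 read 749.5 and 776.5 in treated sh-scr cells and 900.4 to 1065.5 elsewhere, the same order of a low treated sh-scr pair that Etv4 shows. These are the highest of 9294 correlations over 8 arrays that share groups and overall level, and are a description only.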

How the data were processed

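Biotin-labelled RNA of 8 samples was hybridised to Affymetrix arrays. The authors' deposited value table gives 1 linear intensity per probe set and array, and neither summarization nor scaling is given in the sources used here. No scanner files and no detection calls were used here. The deposited values were taken as they stand, without further background correction or normalization between arrays.

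Probe sets were named from the platform annotation. Of 22690, 20380 carry 1 gene symbol, and 64 control probe sets were left out. A gene stands for its probe set of highest mean. The 25% of genes with the lowest mean, about an intensity of 20.1 and below, were dropped, which left 9294 of 12393. The log2(intensity + 16) values were fitted with limma 3.58.1 (R 4.3.3), lmFit and eBayes, 1 mean per group and no block, two-sided, with Benjamini-Hochberg adjustment over all genes tested. The fit leaves 4 residual degrees of freedom, and its script was checked on simulated data. The number of arrays limits the precision.

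The members, the pathway and marker lists and the alternatives were chosen with earlier results of these data known. Named are all members, from each pathway list the 2 largest changes per comparison past the threshold with arrays that do not overlap, and the 5 genes most like Dusp9, Etv4 and Spry2. Other pathway genes named after their values were seen are marked, and of the markers Lyz2 and Cidec were so named. Replicate numbers do not pair samples: deviations of same-numbered arrays correlated at -0.02 to 0.05. Between 121 and 128 of 22690 values were identical between replicates, so each array counts as its own sample. Promoter windows come from a RefSeq table, read with Python 3.11.15. Alternatives tried were the scale between arrays, the filter, the choice of probe set, the pseudocount, the variance prior, a replicate block, the arrays in the fit, and leaving out each array in turn.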

Additional observations from a re-analysis of the deposited data

Results flagged for a closer look

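In 3 members the rosiglitazone change differed between the hairpins by a test of the difference itself, in limma's fit of all genes. The change in sh-PRDM16 cells minus that in sh-scr cells was 1.92 for Dusp9 on the log2(intensity + 16) scale, with changes of 2.22 and 0.30. For Etv4 it was 1.82, with changes of 0.56 and -1.25. For Mapk13 it was -1.18, with changes of -0.51 and 0.67. Each of the 3 calls is lost on median-centred arrays, and the members were chosen with these arrays in view.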

How the results depend on the processing

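For 40 comparisons of a member, 13 called, 732 alternative fits gave 639 on the same side of the threshold, 71 calls lost, 22 calls gained and no called value with a turned sign. With rosiglitazone in sh-scr cells, 3 members were called, 4 on median-centred or quantile-normalized arrays or with only the 4 arrays compared, 2 with the 50% filter, and 2 to 3 when leaving out 1 array at a time. With rosiglitazone in sh-PRDM16 cells 2 were called, 3 on median-centred or quantile-normalized arrays, and 1 with no filter, the 50% filter, every probe set on its own, pseudocounts of 1 or 64, only the 4 arrays compared, or the replicate block, and 1 to 2 when leaving out arrays. For the untreated hairpin comparison the count of 2 became 4 after quantile normalization, 3 on median-centred arrays and 1 with no filter, the 50% filter, every probe set on its own, only the 4 arrays or the replicate block, and 1 to 2 when leaving out arrays. For the treated hairpin comparison the count of 3 became 4 on median-centred or quantile-normalized arrays, 2 with no filter, every probe set on its own, only the 4 arrays or the replicate block, 1 with the 50% filter, and 2 to 3 when leaving out arrays. The interaction count of 3 became 0 on median-centred or quantile-normalized arrays, with no filter and with a pseudocount of 1 (limma, with 4 to 5 members at an unadjusted p under 0.05), 1 with the 50% filter and with every probe set on its own, 4 with a pseudocount of 64, and 0 to 2 when leaving out arrays. For the interaction on median-centred and quantile-normalized arrays, 1244 and 1282 of 9294 genes had an unadjusted p under 0.05 in limma's fit. With no filter 2402 of 12393 genes did, and 2251 of 9294 with a pseudocount of 1. Interaction calls over all genes were 56 up and 6 down as deposited. They were 1 and 4 on median-centred and 2 and 3 on quantile-normalized arrays, 0 and 0 with no filter, and 772 and 28 with a pseudocount of 64. The 50% filter tests only 4 members, without Dusp9, Etv4 and Mapk13. The 1 member called there was Dusp6 in the second comparison and Spry1 in the interaction. With every probe set on its own, the 1 member called for the interaction was Dusp9. The cause of the other losses was not tested. The member counts are to be read beside calls over all genes, which moved with the setting too. In sh-scr cells 483 of 9294 rose and 2991 fell as deposited, and 527 and 3295 with only the 4 arrays. In sh-PRDM16 cells the counts were 937 and 308, and 693 and 188 of 12393 with no filter. Between the hairpins they were 185 and 1439 untreated and 981 and 429 treated, and with no filter 102 and 1016, and 492 and 311. As replicate numbers do not pair the samples, the block and the pairing are given here only: the replicate block gave 3, 1, 1, 2 and 3 calls in the order above. Signals near or below 16, such as Etv4 in treated sh-scr cells, Spry4 and untreated sh-scr Mapk13, are limited by array background, and a lone array left in a group is assumed to vary like the others.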
